A study of Canis lupus familiaris with 7 samples.

Results

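The enzymes and the chaperone that modify, fold and crosslink collagen were described in canine osteosarcoma (OSA), a malignant tumor of bone. The group was set by name: *P4HA1*, *P4HA2*, *P4HA3*, *PLOD1*, *PLOD2*, *SERPINH1*, *COLGALT1*, *COLGALT2*, *LOX* and *LOXL2*, 10 of the 24580 genes in the expression table, and each was matched by its gene symbol. *SERPINH1* encodes a chaperone and is counted with the enzymes. RNAseq values came from dogs, with 4 samples of grossly non malignant bone (non-tumor: N1, N3, N8 and N9) and 3 samples of histologically diagnosed OSA tumor (T1, T3 and T10). All samples were pieces of tissue taken at amputation or euthanasia, and the non-tumor pieces lay next to a tumor and are called matched. No treatment, age or genotype is given for the dogs. Pieces of whole bone hold many cell types, so that fewer cells of a type and less RNA per cell cannot be told apart in any of the values that follow. Nothing in the labels says how many dogs the samples came from, and p-values measure only the spread between these samples.

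Fibrillar collagen is made in the endoplasmic reticulum as long chains that are modified before they fold. Prolyl 4-hydroxylases add the hydroxyl groups that keep the triple helix stable at body temperature, lysyl hydroxylases modify lysines, and the galactosyltransferases add sugar to some of those hydroxylysines. The chaperone HSP47, encoded by *SERPINH1*, binds the folded procollagen, and outside the cell lysyl oxidases convert lysines so that neighbouring molecules crosslink into fibres. In bone the main substrate is type I collagen, built from the products of *COL1A1* and *COL1A2*, which osteoblasts secrete as the matrix that is later mineralised.

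Levels are given in FPKM, fragments scaled by transcript length and by the number of mapped fragments. A gene counted as called when, on log2(FPKM + 1), limma gave a change of 1 or more in either direction (2-fold) and an unadjusted p under 0.05. This scale understates the change of low genes. Genes had to average 1 FPKM or more to be tested, and of the 13507 that did, 3.28% were called higher in OSA tumor and 3.58% lower. No gene had a Benjamini-Hochberg adjusted p under 0.05 by limma. That is, 0 genes passed, the smallest adjusted p was 0.693, and 927 genes had an unadjusted p under 0.05. No other tool was run. For each enzyme the group means of log2(FPKM + 1) were also compared by a two-sided exact permutation test, whose 35 arrangements cannot give a p below 0.0571.

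All 10 enzymes had a higher mean in OSA tumor than in non-tumor bone, and 7 were called higher: *P4HA1*, *P4HA2*, *P4HA3*, *PLOD2*, *SERPINH1*, *LOX* and *LOXL2*. None (0) was called lower, and *PLOD1*, *COLGALT1* and *COLGALT2* were not called. The median log2 fold change was 2.31 over the enzymes and -0.02 over all tested genes, of which 48.6% had a positive value. When all samples were given an equal FPKM total, the median of all genes moved to 0.12, and the enzymes called still numbered 7. Genes called were then 271 higher and 493 lower, in place of 443 and 483. With the sample number as a fixed block, on the 4 samples that share numbers 1 and 3, only 3 enzymes were called: *P4HA2*, *PLOD2* and *LOXL2*. No source used here says that a shared number marks 1 dog. In 3 enzymes, *P4HA1*, *P4HA2* and *PLOD2*, every tumor sample lay above every non-tumor sample, an order found in 3.04% of all tested genes. All 10 passed the filter on low values, but *COLGALT2* did so through its tumor values, since its non-tumor mean was 0.899 FPKM.

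The samples within a group were far apart. N1 was the highest non-tumor sample for 8 of the 10 enzymes and T3 the lowest tumor sample for 7, and N1 lay above T3 in 5 enzymes, above T10 in 1 and above T1 in 0. T1 and T10 were each the highest tumor sample for 5 enzymes. With N1 left out, a sample chosen after the values were seen, the groups of 7 enzymes did not overlap, against 9.72% of all tested genes.

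**Figure D1:**
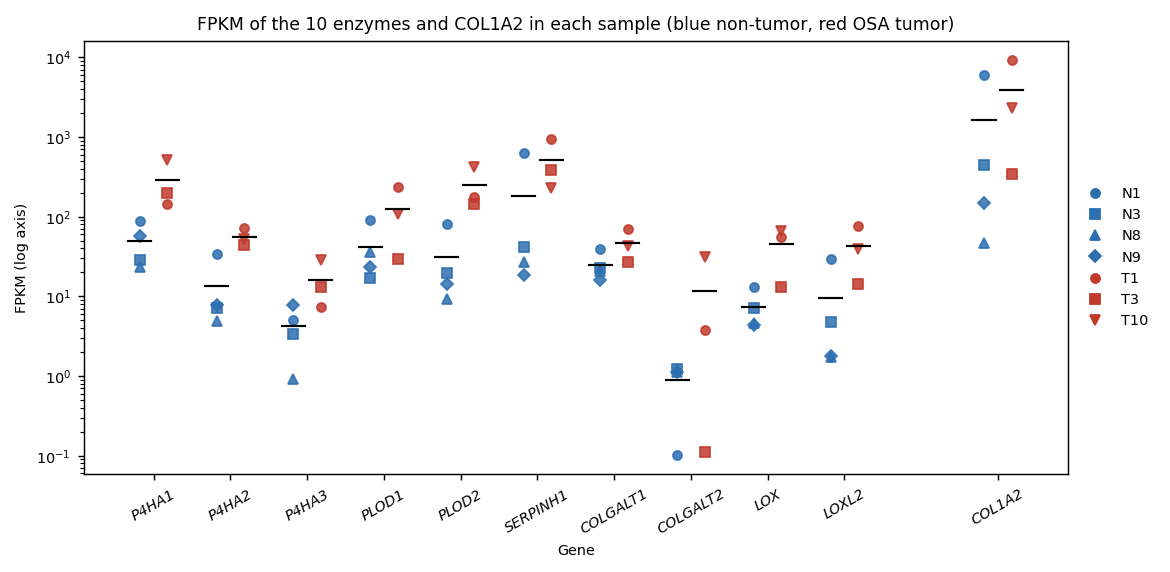
FPKM (log axis) of the 10 enzymes and *COL1A2* in each of the 4 non-tumor (blue) and 3 OSA tumor (red) samples, 1 symbol per sample. N1 sits at the top of the non-tumor samples for 8 enzymes, and the groups are fully apart for *P4HA1*, *P4HA2* and *PLOD2*.

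Cell type markers differed between the same samples. The summed FPKM of 9 tested osteoblast lineage markers was 1881, 1283, 119 and 358 in N1, N3, N8 and N9, and 4270, 1734 and 992 in T1, T3 and T10, and 0 of the 9 were listed at 0 in any sample. Skeletal muscle markers summed to between 82.9 and 67576 FPKM in non-tumor bone and to between 7.20 and 30.2 in tumor, with 8 of 10 called lower. Erythroid markers ran from 7.34 to 5091 against 3.58 to 78.8 (6 of 9 called lower), and granulocyte markers from 452 to 54359 against 58.1 to 1466 (5 of 7 called lower). Fibroblast and stroma markers summed to between 357 and 1026 in non-tumor and between 679 and 7515 in tumor, where *FBLN1* was the 1 of 7 called higher. Adipocyte markers (4 of 4 called lower, 29.3 to 281 against 9.89 to 44.6) and endothelial markers (3 of 6 called lower, 67.2 to 323 against 20.4 to 88.7) also differed. Chondrocyte markers ran from 11 to 302 in non-tumor and from 124 to 807 in tumor, with *SOX9* and *ACAN* called higher of 6. No call (0) was made among macrophage (58.2 to 981 against 173 to 570), osteoclast (209 to 1675 against 475 to 3514) or cell cycle markers (24.1 to 320 against 161 to 402). Of the markers reported by name, *MYH1*, *MYL3*, *CKM*, *HBM*, *CTSG*, *COL2A1* and *LEP* were each listed at 0 in 1 sample, and *SLC4A1*, *OCSTAMP* and *MATN3* in 2. *MYH1* and *CKM* were at 0 in N9, where *ACTA1* was at 11146 FPKM. The authors' pooled non-tumor value is 0 for both, against 2028 and 35044 FPKM in N8. Such a 0 may be an estimate that failed. The part of these differences in cell content in the enzymes' values was not tested.

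Prolyl 4-hydroxylase works as a tetramer whose catalytic alpha subunit comes from *P4HA1*, *P4HA2* or *P4HA3*. All 3 were called higher in tumor. *P4HA1* (ENSCAFG00000014573; CanFam3.1, chr4:23597015-23662948) was the most abundant alpha subunit in every sample. It stood at 87.2, 28.6, 23.4 and 57.7 FPKM in N1, N3, N8 and N9, against 145, 197 and 521 in T1, T3 and T10. The lowest tumor sample was thus above the highest non-tumor one, and T10 held 60.4% of the tumor sum. Its mean was 49.2 ± 29.5 (SD, n = 4) in non-tumor and 288 ± 204 (SD, n = 3) in tumor, and its log2 fold change was 2.49 ± 0.66 (SE, limma p = 0.0039, adjusted p = 0.693, exact permutation p = 0.0571). With each sample left out in turn it was called in all 7 fits, at 1.95 to 2.87, but with the fixed block it was not called (1.73).

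*P4HA2* (ENSCAFG00000000824; chr11:20512345-20548297) was at 33.6, 7.09, 4.93 and 7.91 FPKM in N1, N3, N8 and N9, and at 72.3, 43.7 and 52.2 in T1, T3 and T10. N1 stood far above the other non-tumor samples but below all 3 tumors, which lay closer together than for any other enzyme called higher. On the log2 scale the difference was 2.34 ± 0.64 (SE, limma p = 0.0049, adjusted p = 0.693, exact permutation p = 0.0571), and the call held in all 7 fits that left out a sample (2.04 to 2.89). *P4HA3* (ENSCAFG00000005527; chr21:23991410-24032463, an interval that covers 2 genes) was the least abundant subunit in every sample, with 5.0, 3.36, 0.914 and 7.78 FPKM in N1, N3, N8 and N9, and 7.38, 13.0 and 28.4 in T1, T3 and T10. Here N9 was the highest non-tumor sample and lay just above T1. The log2 fold change of *P4HA3* was 1.72 ± 0.66 (SE, limma p = 0.027, exact permutation p = 0.114), and its call was lost without N3 (1.70), N8 (1.30), T3 (1.78) or T10 (1.24).

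The summed level of the 3 subunits lay between 29.2 and 126 FPKM in non-tumor and between 224 and 602 in tumor, without overlap (two-sided exact permutation p = 0.0571). Their proportions overlapped. *P4HA1* made up 69.3% to 80.0% of the sum in non-tumor samples and 64.5% to 86.6% in tumors (exact permutation p = 0.971). These family shares, and those of the families that follow, were chosen after the values were seen, and their p-values are not adjusted. *P4HB*, which encodes the beta subunit, averaged 305 FPKM in non-tumor and 539 in tumor and was not called (log2 fold change 1.10 ± 0.72, SE, limma p = 0.159, exact permutation p = 0.171).

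Of the lysyl hydroxylases, *PLOD2* acts on the telopeptides at the ends of the collagen molecule, which sets the type of crosslink that forms, and *PLOD1* acts on the helix. *PLOD2* (ENSCAFG00000008101; chr23:41289828-41383170) had the largest log2 fold change of the 10 enzymes over all 7 samples, but *SERPINH1* exceeded it without N1 (3.93 against 3.91) or without T10 (3.27 against 2.83). Its level was 80.7, 19.9, 9.18 and 14.3 FPKM in N1, N3, N8 and N9, and 177, 146 and 418 in T1, T3 and T10. Every tumor was above N1, and 3 of the 4 non-tumor samples were below 20 FPKM. The means were 31.0 ± 33.4 (SD, n = 4) and 247 ± 149 (SD, n = 3), a ratio of 7.97, and the log2 fold change was 3.29 ± 0.75 (SE, limma p = 0.0016, adjusted p = 0.693, exact permutation p = 0.0571). It was called in all 7 fits that left out a sample, at 2.83 to 3.91.

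*PLOD1* (ENSCAFG00000016522; chr2:84320529-84343562) did not pass the test. It was measured at 91.3, 17.0, 36.1 and 23.2 FPKM in N1, N3, N8 and N9, and at 239, 29.5 and 107 in T1, T3 and T10. T3 lay inside the non-tumor range, below N8 and N1. Its log2 fold change was 1.41 ± 0.80 (SE, limma p = 0.112, 95% interval -0.39 to 3.21, exact permutation p = 0.229). *PLOD1* was called only without N1 (1.87) or without T3 (2.21), and fell to 0.72 without T1. The third lysyl hydroxylase, *PLOD3*, which also transfers sugars, came close to the limit at 1.71 ± 0.77 (SE, limma p = 0.0509, exact permutation p = 0.171) and was not called.

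Within the summed FPKM of *PLOD1*, *PLOD2* and *PLOD3*, the share of *PLOD2* was 31.7%, 36.5%, 15.1% and 30.8% in N1, N3, N8 and N9. It was 32.3% in T1, 68.5% in T3 and 69.5% in T10. T1 thus lay inside the non-tumor range, whereas in T3 and T10 most of the lysyl hydroxylase mRNA was *PLOD2* (exact permutation p = 0.114 for tumor against non-tumor).

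*SERPINH1* (ENSCAFG00000005386; chr21:23033455-23042446), the collagen chaperone gene, was the most abundant of the 10 enzymes in N1, N3, T1 and T3. It reached 635 FPKM in N1 but only 41.7, 27.0 and 18.5 FPKM in N3, N8 and N9, and was at 933, 384 and 229 in T1, T3 and T10. N1 lay above T3 and T10, and the other 3 non-tumor samples lay well below every tumor. The log2 fold change was 2.81 ± 1.14 (SE, limma p = 0.035, adjusted p = 0.693, exact permutation p = 0.171). The call held without N1 (3.93) or T10 (3.27) and was lost without N3 (2.63), N8 (2.43), N9 (2.25), T1 (2.26) or T3 (2.90).

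The galactosyltransferases *COLGALT1* and *COLGALT2* were not called. *COLGALT1* (ENSCAFG00000031738; chr20:45250100-45273002) varied least of the 10, with 4.36-fold between its lowest and highest sample. It was at 39.1, 22.7, 21.0 and 16 FPKM in N1, N3, N8 and N9, and at 69.8, 27.2 and 42.6 in T1, T3 and T10. Only N1 overlapped the tumors, and the log2 fold change was 0.86 ± 0.51 (SE, limma p = 0.126, 95% interval -0.29 to 2.01, exact permutation p = 0.114), with 0 calls in the 7 fits that left out a sample. *COLGALT2* (ENSCAFG00000013448; chr7:17245555-17342562) was near 1 FPKM in 3 non-tumor samples (1.24, 1.14 and 1.11 in N3, N8 and N9) and at 0.103 in N1. Among tumors it was at 3.75, 0.111 and 31.0 in T1, T3 and T10. T10 alone held 88.9% of the tumor sum, and there *COLGALT2* made up 42.2% of the 2 galactosyltransferases, against at most 6.50% in every other sample. Its log2 fold change was 1.60 ± 0.99 (SE, limma p = 0.139, exact permutation p = 0.229), 0.33 without T10 and 2.75, called, without T3.

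Lysyl oxidase (*LOX*) and lysyl oxidase-like 2 (*LOXL2*) are secreted copper enzymes that start the crosslinking of collagen. *LOX* (ENSCAFG00000028461; chr11:12022969-12040277) was at 13.3, 7.10, 4.65 and 4.42 FPKM in N1, N3, N8 and N9, and at 56.2, 13.0 and 65.5 in T1, T3 and T10. T3 fell just below N1, while T1 and T10 were far above all non-tumor samples. Tumor exceeded non-tumor by 2.29 ± 0.65 on the log2 scale (SE, limma p = 0.0062, adjusted p = 0.693, exact permutation p = 0.114). *LOX* was called in all 7 fits that left out a sample (1.88 to 3.0), but not with the fixed block (1.40). *LOXL2* (ENSCAFG00000009187; chr25:34126275-34206962, an interval that covers 2 genes) was at 29.4, 4.78, 1.71 and 1.79 FPKM in N1, N3, N8 and N9, and at 75.6, 14.5 and 39.3 in T1, T3 and T10. N1 lay above T3 only. The log2 fold change of *LOXL2* was 2.59 ± 0.91 (SE, limma p = 0.018, exact permutation p = 0.114), and the call was lost without N8 (2.20), T1 (2.05) or T10 (2.51).

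Both *P4HA3* and *LOXL2* share their interval with another gene, and the strand setting of the authors' counting is not given in the sources used here, so their values are less certain. The same holds for *P4HB*, *PPIB* and *LOXL1*, whose intervals cover 22, 7 and 3 genes.

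The make-up of the lysyl oxidase family separated the groups where the level of *LOXL1* did not. *LOXL1* was at 102, 20.2, 24.9 and 18.6 FPKM in N1, N3, N8 and N9, and at 111, 19.8 and 45.1 in T1, T3 and T10 (log2 fold change 0.55 ± 0.76, SE, limma p = 0.485, exact permutation p = 0.514). Of the summed FPKM of *LOX*, *LOXL1*, *LOXL2*, *LOXL3* and *LOXL4*, *LOXL1* took 51.7% to 71.8% in non-tumor samples and 22.9% to 38.1% in tumors (two-sided exact permutation p = 0.0571). *LOXL2* took 4.93% to 18.1% in non-tumor and 19.9% to 27.9% in tumor (exact permutation p = 0.0571). The share of *LOX* ran from 8.19% to 18.2% and from 19.0% to 33.2% (exact permutation p = 0.0571). The groups did not overlap in these 3 shares, whereas those of *LOXL3* and *LOXL4* overlapped (exact permutation p = 0.571 and 0.286). Shares of 1 sum are tied to each other, so these are not 3 separate results. The gap between the groups was small for *LOX* (18.2% against 19.0%) and *LOXL2* (18.1% against 19.9%). How often shares in other gene families set the groups apart was not counted. A share within a sample does not depend on the scaling between samples.

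**Figure D2:**
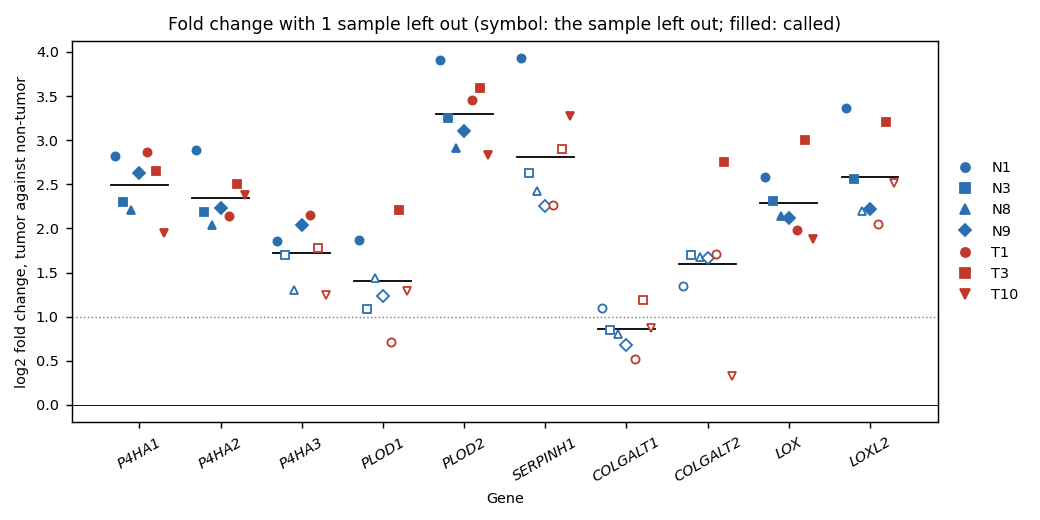
Log2 fold change of each enzyme (tumor against non-tumor, on log2(FPKM + 1)) in the 7 fits that left out 1 sample, with the symbol naming the sample left out and a filled symbol marking a call. *P4HA1*, *P4HA2*, *PLOD2* and *LOX* are filled throughout, and *COLGALT1* is open throughout.

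The other genes of the pathway were counted from lists. Of 10 tested partners in prolyl and lysyl modification, 3 were called higher, 0 lower and 7 not at all, with a median log2 fold change of 1.77. Those called were *FKBP14*, *PPIB* and *P3H2*. The prolyl isomerase *FKBP14*, which helps collagen fold, was at 20.5, 5.60, 1.21 and 4.45 FPKM in N1, N3, N8 and N9, and at 26.8, 14.9 and 59.1 in T1, T3 and T10 (log2 fold change 2.21 ± 0.78, SE, limma p = 0.019, exact permutation p = 0.114, call lost without N8 or T10). *PPIB*, the cyclophilin of the prolyl 3-hydroxylation complex, was at 1231, 451, 265 and 93.1 FPKM in N1, N3, N8 and N9, and at 1647, 1240 and 1397 in T1, T3 and T10. The tumors lay close together and all above N1, by a narrow margin for T3 (2.05 ± 0.86, SE, limma p = 0.040, exact permutation p = 0.0571), and the call held in 1 of the 7 fits that left out a sample, the one without N1. *P3H2*, a prolyl 3-hydroxylase, was at 2.96 to 5.86 FPKM in non-tumor and at 8.39, 8.59 and 63.7 in T1, T3 and T10 (1.82 ± 0.71, SE, limma p = 0.030, exact permutation p = 0.0571, call lost without N8, N9 or T10).

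Of 8 tested genes for the processing and export of procollagen, 0 were called in either direction and the median log2 fold change was 1.36. Of 4 other crosslinking enzymes, 1 was called, the transglutaminase *TGM2*, and it was lower in tumor. *TGM2* was at 3.54, 13.4, 24.1 and 18.2 FPKM in N1, N3, N8 and N9, and at 4.37, 5.67 and 1.38 in T1, T3 and T10. N1 lay within the tumor range, and the log2 fold change was -1.60 ± 0.68 (SE, limma p = 0.042, exact permutation p = 0.171). With a sample left out it stayed between -2.11 and -1.15, and the call was kept only without N1 or T3. Of 5 fibrillar collagen chains 0 were called, with a median of 0.62. That median includes *COL1A1* at -2.25, which is listed at 0 in T1 and stood at 0.67 without T1, and the median of the other 4 chains was 1.27.

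**Figure D3:**
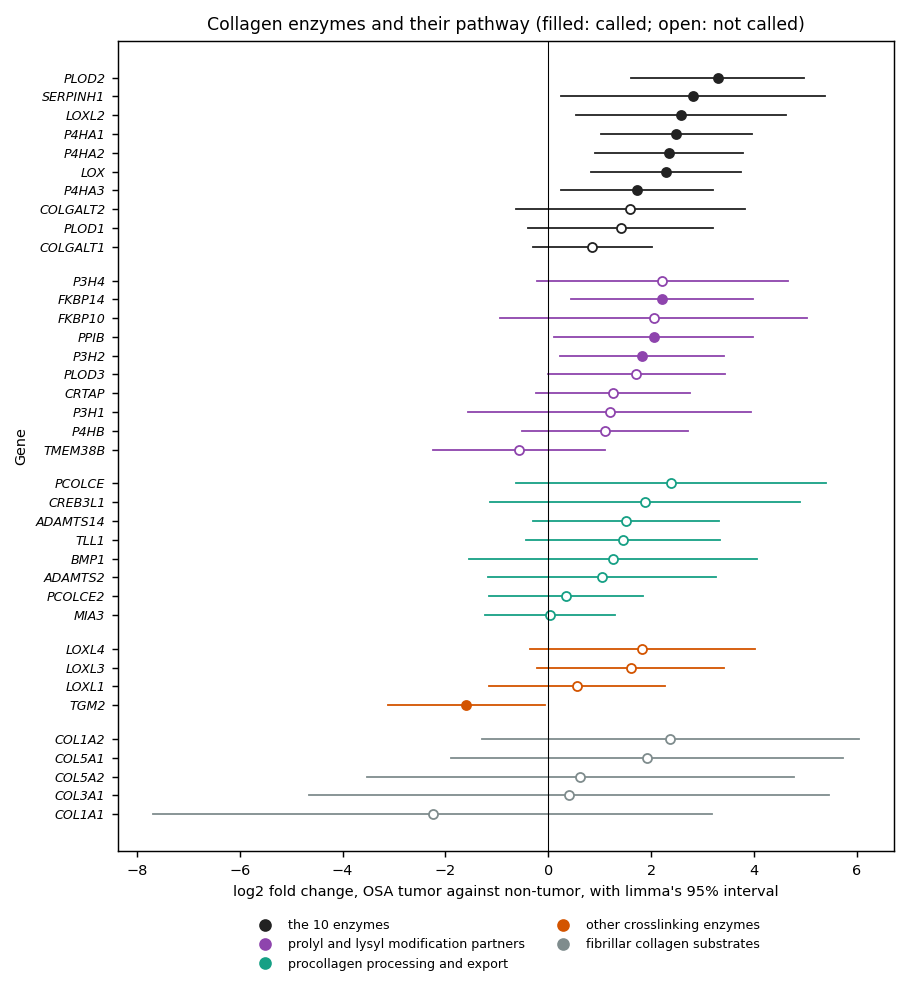
Log2 fold change (tumor against non-tumor, log2(FPKM + 1)) with limma's 95% interval for the 10 enzymes and the tested genes of the pathway lists, where filled points were called. 7 of the 10 enzymes are filled and to the right of 0, and *TGM2* is the filled point to the left.

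The levels were then set against *COL1A2* (ENSCAFG00000002069; chr14:19883733-19920718), the chain used here to stand for type I collagen mRNA. *COL1A1* is listed at 0 in T1, and the authors' pooled tumor value is 0 for both chains, so *COL1A2* is the more complete measure per sample. Such a 0 may be an estimate that failed, which leaves every *COL1A1* value that includes T1 in doubt, and the pooled 0 for *COL1A2* goes against its level in each tumor sample. *COL1A2* was at 5931, 450, 46.9 and 148 FPKM in N1, N3, N8 and N9, and at 9139, 342 and 2285 in T1, T3 and T10. It spanned 195-fold over the samples and its groups overlapped widely: T3 lay below N3, and N1 above T3 and T10. Its log2 fold change was 2.37 ± 1.63 (SE, limma p = 0.178, exact permutation p = 0.343), and with a sample left out it ran from 1.25 (without T1) to 3.71 (without N1, where alone it was called). Apart from *COLGALT2*, which spanned 300-fold from a floor of 0.103 FPKM, the enzymes spanned 4.36-fold to 50.4-fold, less than *COL1A2*.

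Per 1000 FPKM of *COL1A2*, no difference between the groups was detectable in the fit without pairing, and 0 enzymes were called with the sample number as a fixed block. As a random block, alone of the settings run, it gave calls for *PLOD2* and *P4HA2*. None (0) of the 10 enzymes was called on log2(FPKM + 1) after subtraction of the *COL1A2* value of the same sample, where 0.00740% of 13506 genes were called higher and 2.92% lower. In that fit 0 genes had an adjusted p under 0.05 by limma (smallest 0.073), and 396 genes, 0 of them enzymes, had an unadjusted p under 0.05. Every gene in it shares the same 7 *COL1A2* values. The median relative log2 fold change was -0.06 over the enzymes and -2.40 over all genes. Each is nearly the earlier median (2.31 and -0.02) less the 2.37 of *COL1A2*, so it is not a separate result. *PLOD2* had the highest value at 0.92 ± 2.55 (SE, 95% interval -4.09 to 5.92) and *COLGALT1* the lowest at -1.52 ± 2.48 (SE, 95% interval -6.39 to 3.35). Neither direction was stable. *PLOD2* was at -0.031 without T3, and at 2.67 with *COL5A2* and 2.89 with *COL3A1* as the reference chain. With *COL1A1* as the reference it was at 2.78, but that fit left out T1, without which *COL1A2* itself gave 2.20. *COLGALT1* turned to 0.46 with *COL3A1*, 0.24 with *COL5A2*, 0.42 with the fixed block and 0.28 with the random one. *COL3A1* and *COL5A2* were low in T10 (1.14 and 2.16 FPKM), which raises every ratio to them in that tumor. The 95% intervals leave room for changes of many-fold in either direction. Their SE was alike for all 10 enzymes (2.34 to 2.65), since limma here took the spread largely from all genes together. They do not measure each enzyme's own spread. The exact permutation p, which does not use limma's SE, ran from 0.457 to 0.971.

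The ratios spread widely within both groups. *P4HA1* was at 14.7 FPKM per 1000 FPKM of *COL1A2* in N1 and 15.8 in T1, the samples with the most *COL1A2*. In N3, N8 and N9 it was at 63.5, 498 and 389, and in T3 and T10 at 575 and 228. *PLOD2* followed the same order of N1 and T1 below the rest, with 13.6, 44.2, 196 and 96.2 in N1, N3, N8 and N9, and 19.3, 427 and 183 in T1, T3 and T10. *SERPINH1* was at 107, 92.8 and 125 in N1, N3 and N9 and at 102 and 100.2 in T1 and T10, but at 575 in N8 and 1122 in T3. Its ratio spanned 12.1-fold over the 7 samples, and that of *LOXL2* spanned least, at 8.54-fold.

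**Figure D4:**
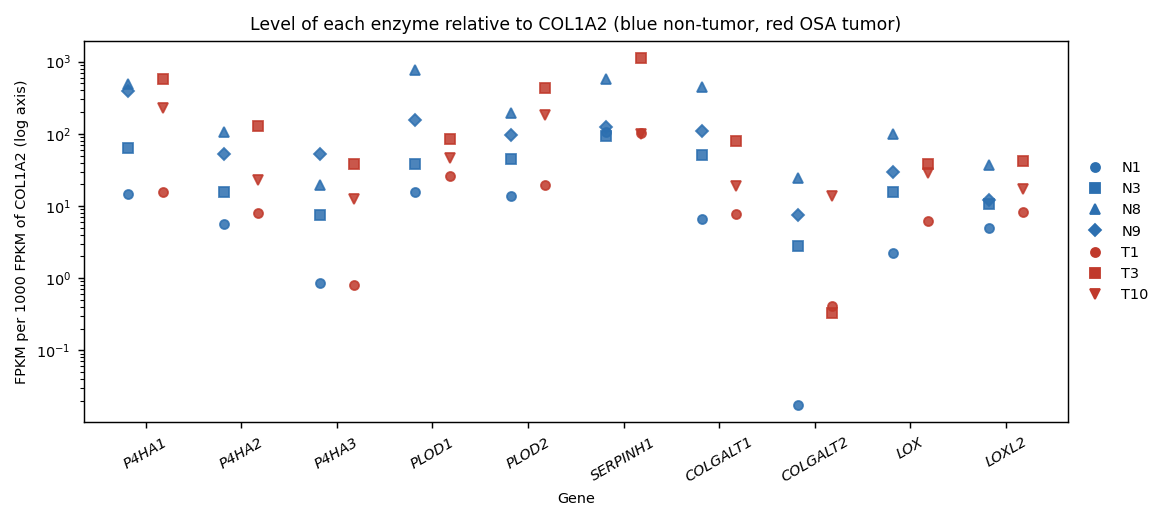
FPKM of each enzyme per 1000 FPKM of *COL1A2* (log axis) in the 4 non-tumor (blue) and 3 tumor (red) samples. N1 and T1 lie near the bottom for most enzymes, T3 and N8 near the top, and no enzyme separates the groups.

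N3 and T3 had similar *COL1A2* values, T3 at 0.761 times N3, and so show the enzymes at a like level of this chain. *COL1A1* was also alike (1.04 times), but *COL3A1* was 4.82 times and *COL5A2* 3.93 times as high in T3. The pair was chosen after the values were seen, sets 1 sample against 1 and has no test. *SERPINH1* was 9.21 times as high in T3 as in N3, *PLOD2* 7.37 times, *P4HA1* 6.89 times, *P4HA2* 6.16 times, *P4HA3* 3.88 times and *LOXL2* 3.03 times. *LOX* (1.83), *PLOD1* (1.74) and *COLGALT1* (1.2) differed less, and *COLGALT2* was lower, at 0.090 times, with only 0.111 FPKM in T3. At least a 2-fold higher value in T3 was found for 6 of the 10 enzymes and for 22.4% of all tested genes. Between N1 and T1, whose *COL1A2* values were the highest, T1 was above N1 in all 10 enzymes (51.2% of all genes) and *COL1A2* itself was 1.54 times as high. There the ratio was 1.66 for *P4HA1* and 1.47 for *SERPINH1*, next to that of *COL1A2*, and 4.23 for *LOX*. It was 36.3 for *COLGALT2*, a ratio to a value near the floor (0.103 FPKM in N1).

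Across the 7 samples most enzymes varied with *COL1A2*. Pearson's r on log2(FPKM + 1) was above 0 for all 10, with a median of 0.80 over the enzymes against -0.03 over all genes. A positive r with an exact permutation p under 0.05, over the 5040 orders of the samples, was found for 6 enzymes and for 8.60% of 13506 genes, and 0 genes had an adjusted p under 0.05 (smallest 0.141). The closest was *LOXL2* with r = 0.93 (n = 7, exact permutation p = 0.0052, adjusted p over all genes 0.214, Spearman's rho 0.93, exact permutation p = 0.0067), and 0.985% of genes had an r at least as high. *COLGALT1* followed with r = 0.90 (exact permutation p = 0.0079, adjusted p 0.234, rho 0.89, exact permutation p = 0.012), then *SERPINH1* with r = 0.86 (exact permutation p = 0.026, adjusted p 0.292, rho 0.86, exact permutation p = 0.024).

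*P4HA2* (r = 0.82, exact permutation p = 0.044, rho 0.75), *PLOD1* (r = 0.81, exact permutation p = 0.035, rho 0.64) and *LOX* (r = 0.80, exact permutation p = 0.031, rho 0.82) also passed before adjustment, at adjusted p of 0.327, 0.314 and 0.307. The exact permutation p of rho was 0.066 for *P4HA2*, 0.139 for *PLOD1* and 0.034 for *LOX*. *PLOD2* (r = 0.75, exact permutation p = 0.064, rho 0.75, exact permutation p = 0.066) and *P4HA1* (r = 0.58, exact permutation p = 0.174, rho 0.54, exact permutation p = 0.236) were less close to *COL1A2* over the 7 samples. The weakest relations were those of *P4HA3* (r = 0.46, exact permutation p = 0.305, rho 0.21, exact permutation p = 0.662) and *COLGALT2* (r = 0.30, exact permutation p = 0.567, rho 0.25, exact permutation p = 0.595), at adjusted p of 0.602 and 0.798.

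The slope of log2 level on log2 *COL1A2* ran from 0.18 to 0.69, and *SERPINH1* had the steepest. Without T1 and N1, the 2 samples farthest from the median of *COL1A2*, only *LOX* (r = 0.89, exact permutation p = 0.033) and *LOXL2* (r = 0.90, exact permutation p = 0.042) still passed before adjustment. With single samples left out *LOX* did not pass without N3, N8, N9, T1 or T3, *PLOD1* without N1, N9, T1, T3 or T10, *P4HA2* without N8, N9, T1 or T10, and *SERPINH1* without N8 or T1, whereas *LOXL2* and *COLGALT1* passed each time. For *COLGALT1* r without both T1 and N1 was 0.81, for *P4HA2* 0.77, for *SERPINH1* 0.66 and for *PLOD1* 0.55. None of these 4 passed with the 5 samples left. It was 0.86 for *PLOD2*, 0.79 for *P4HA1*, 0.84 for *P4HA3* and 0.72 for *COLGALT2*. With each value centred on its group mean, 4 enzymes passed (exact permutation within groups): *LOXL2* at 0.98, *P4HA2* at 0.90, *COLGALT1* at 0.89 and *LOX* at 0.83.

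**Figure D5:**
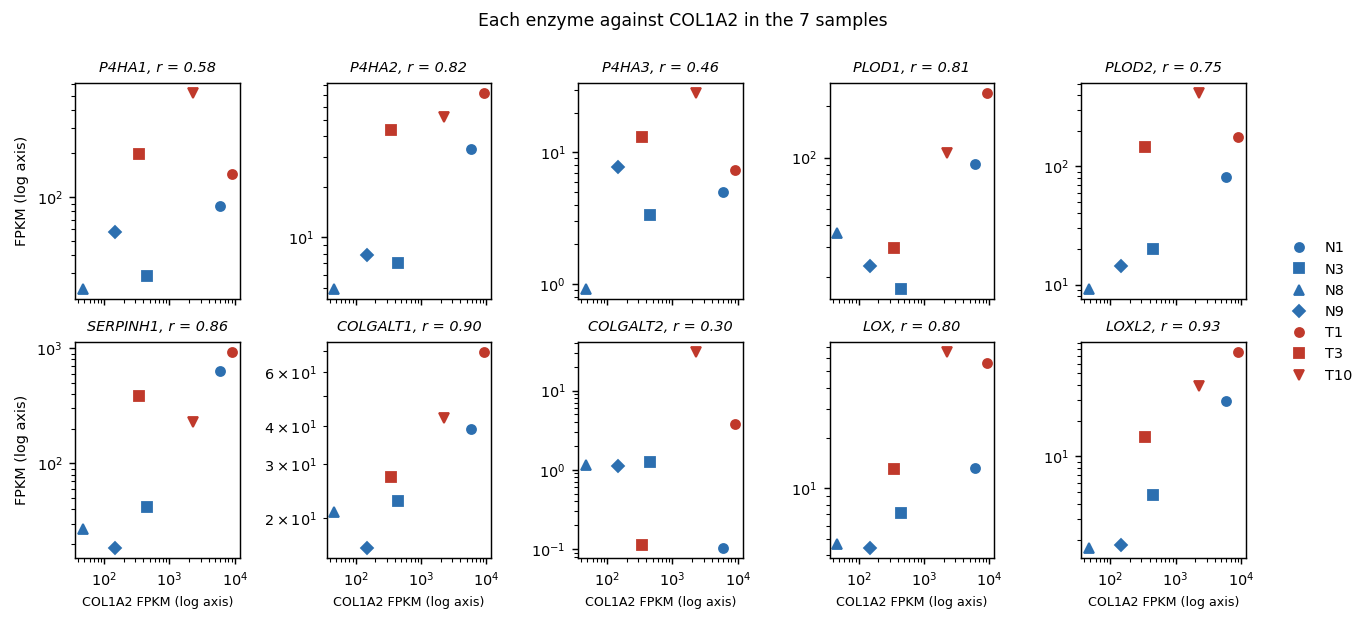
Each enzyme (FPKM, log axis) against *COL1A2* (FPKM, log axis) in the 7 samples, 1 panel per enzyme with Pearson's r on log2(FPKM + 1). *LOXL2* and *COLGALT1* rise steadily with *COL1A2* (r = 0.93 and 0.90), while for *P4HA1* and *PLOD2* T3 lies well above N3 at a similar *COL1A2* level.

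The enzymes also varied with each other. Over their 45 pairs the median r was 0.78 in the 7 samples and 0.56 after centring on the group means, from 0.96 for *COLGALT1* with *LOXL2* to 0.10 for *SERPINH1* with *COLGALT2*. These are descriptions over the same 7 samples, which differ between groups. The mean of the enzymes' standardised values was 1.14 in T10, 0.99 in T1, 0.21 in N1 and 0.17 in T3, and lay between -0.99 and -0.74 in N3, N8 and N9. The genes outside the group whose values were most like this mean, by Pearson's r over 7 samples, were *HAPLN1* (0.996), *FAM89A* (0.995), *SLC35F1* (0.989), *PCDHB15* (0.986) and *HAPLN3* (0.985). *HAPLN1* was at 10.4, 0.884, 0.084 and 0.905 FPKM in N1, N3, N8 and N9 and at 67.9, 13.5 and 144 in T1, T3 and T10.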

How the data were processed

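RNA of 4 non-tumor and 3 OSA tumor samples was sequenced by the authors (stranded paired-end libraries, Illumina HiSeq). After trimming in Trim Galore and alignment by Tophat2 to the CanFam3.1 genome with its Ensembl annotation, the authors deposited FPKM per gene and sample from Cufflinks/Cuffdiff. Versions, the strand setting and the normalization between libraries were not given in the sources used here. The authors' group comparison was read for gene positions and pooled FPKM only; its fold changes, test statistics, p-values and q-values were not used. Starts were made 1-based.

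The log2 of FPKM plus 1 was fitted, without a block, by limma 3.58.1 in R 4.3.3 (empirical Bayes with trend). Genes averaging under 1 FPKM were left out, and the others were called at the limits of the study's methods. Exact permutation tests used Python 3.11.15 and scipy 1.17.1. The fit and the correlations were tested on simulated data. The FPKM table holds no counts, so depth is known only relatively, from the steps between low values: the fragments behind 1 FPKM were 0.543 (N8) to 1.43 (T10) times those in N1.

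The enzymes, gene lists and tests were chosen with earlier results of these data known. Named were the 10 enzymes, *COL1A1* and *COL1A2*, the pathway genes called or with groups apart, and the 5 genes most like the enzymes' mean. Other genes named were chosen after their values were seen. Of 11 partners 10 were matched and tested, of 10 processing genes 9 were matched and 8 tested, and older symbols were used for *P3H1*, *P3H2* and *P3H4*. Results were recomputed with other pseudocounts, filters, scalings, weights, reference collagens and blocks, and with each sample left out. Some marker genes are counted in the sums but not reported here by name.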

Additional observations from a re-analysis of the deposited data

Results flagged for a closer look

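In 7 of 21 sets of 4 non-tumor values, 1 sample stood apart by the gap to its nearest neighbour as a share of the whole range. By chance about 1 in 20 such sets would be picked out, and the sets share the same 4 samples. N1 was the sample apart in 6 of them. It was the highest for *SERPINH1* (gap 0.962 of the range), *COL1A2* (0.932), *P4HA2* (0.896), *LOXL2* (0.889) and *PLOD2* (0.851), and the lowest for *COLGALT2* (0.889). In *SERPINH1* per 1000 FPKM of *COL1A2*, N8 stood apart as the highest (0.934). The summed osteoblast lineage markers were highest of the non-tumor samples in N1 (1881 FPKM) and lowest in N8 (119 FPKM), and their part in these gaps was not tested.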

How the results depend on the processing

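The log2 fold change of each enzyme kept its sign under all 18 alternatives. Genes called higher (443) numbered 271 with FPKM rescaled to the same sum and 826 with sample weights, and genes called lower (483) numbered 228 without the filter and 1031 with sample weights. With a sample left out, 187 to 852 genes were called higher and 126 to 1145 lower, the extremes being without N8 and without N1 except for the 126, which came without T10. Of the enzymes, 4 (without N8) to 8 (without N1) were then called higher, and 6 without the filter or after quantile normalization, where *SERPINH1* was lost. The study calls the non-tumor tissue matched, but no source used here says that the shared numbers 1 and 3 mark 1 dog. Deviations from the group means correlated at 0.42 for N1 with T1 and 0.21 for N3 with T3, each the highest for its samples. A fixed replicate block on those 4 samples gave 142 genes higher, 99 lower and 3 enzymes called (*P4HA2*, *PLOD2* and *LOXL2*), with *P4HA1* at 1.73, *P4HA3* at 1.08, *SERPINH1* at 1.86 and *LOX* at 1.40 not called and *COL1A2* at 0.12. A random replicate block gave 533 higher, 529 lower and 7 enzymes, and 2 enzymes called relative to *COL1A2*, *PLOD2* (1.79) and *P4HA2* (1.54), against 0 in all other settings. The relative value of *COLGALT1* (-1.52) turned to 0.42 with the fixed and 0.28 with the random replicate block. It turned to 0.46 with *COL3A1* and to 0.24 with *COL5A2* as the reference. That of *PLOD2* (0.92) ran with a sample left out from -0.031 (without T3) to 2.20 (without T1). It reached 2.89 with *COL3A1* as the reference. Both of these reference chains were low in T10, at 1.14 FPKM for *COL3A1* and 2.16 FPKM for *COL5A2*. The 6 enzymes correlated with *COL1A2* numbered 2 without the 2 farthest samples and 2 (without T1) to 5 with 1 sample left out. The causes were not tested. There were 4 and 3 samples, and *COL1A2* spanned 195-fold. The 95% intervals of the enzymes' changes relative to *COL1A2* reach several log2 units on both sides of 0. They rest largely on the spread that limma took from all genes together, not on each enzyme's own spread.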

Other observations

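T10, the tumor with the most *P4HA1*, *PLOD2* and *LOX*, was listed at low FPKM for some collagen chains. *COL3A1* was at 1.14 FPKM in T10 against 267 in T3 and 2353 in T1, and at 12.0 to 1420 in the non-tumor samples. *COL5A2* was at 2.16 FPKM in T10 against 125 in T3 and 793 in T1, and at 10.3 to 565 in the non-tumor samples. *COL1A2* was at 2285 FPKM in the same sample, and the small proteoglycan genes *LUM* and *DCN* were at 3925 and 3270. These values were chosen after they were seen and have no test. Whether the low ones are estimates that failed was not tested.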
